A study of Mus musculus with 6 samples.

Results

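The Kruppel-like factor (KLF) family was examined in mouse embryonic stem cells (mESCs) through 10 of its genes, Klf2, Klf3, Klf4, Klf5, Klf6, Klf7, Klf9, Klf10, Klf11 and Klf13, taken by name from the 53390 genes of the transcript files. KLF proteins are transcription factors that bind CACCC and related GC-rich sequences through zinc fingers at their C-terminal end, and they share this preference with the Sp factors. Klf2, Klf4 and Klf5 are known for overlapping roles in the self-renewal of naive mESCs, with Klf4 a known target of LIF and STAT3 signalling. Other members act mainly as repressors, either by binding CtBP proteins (Klf3) or by binding SIN3 corepressors (Klf9, Klf10, Klf11 and Klf13). Poly(A)-selected, strand-specific RNA-seq was available for 6 libraries of Dnmt1, Dnmt3a and Dnmt3b triple knockout (TKO) mESCs, which descend from the male 129S4/SvJae line J1 and were grown on gelatin without feeder cells. In 3 libraries the cells had been grown in 2i medium (TKO-2i), which was N2B27 with the MEK inhibitor PD0325901 at 1 µM, the GSK3 inhibitor CHIR99021 at 3 µM and LIF at 1000 U/ml, for 14 days. In the other 3 the medium held 15% fetal calf serum and LIF at 500 U/ml (TKO-serum), so the media differ in serum and LIF dose as well as in both inhibitors, and these cannot be told apart. There was no library with functional DNA methyltransferases among those analysed here.

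Sequencing depth, as total estimated counts, was 46228700, 44180642 and 43896549 for TKO-2i replicates 1, 2 and 3. The TKO-serum replicates had 38274042, 51932739 and 44827609. At these depths 3 counts correspond to between 0.0564 and 0.0778 CPM (counts scaled to library sizes adjusted by TMM normalization factors). This floor covers counting error only. TKO-2i replicate 2 stood apart from its group. Its chi-square per gene was 48.1 against replicate 1 and 29.3 against replicate 3, while replicates 1 and 3 differed by 7.51. Between the TKO-serum libraries the same measure lay between 4.78 and 16.4, above counting error alone. The replicates are described as biological, but nothing states that each came from a separate culture, and p-values then measure the spread between these samples. The 7 mESC markers summed to 5245, 4737 and 4742 TPM (a level corrected for transcript length) in TKO-2i and to 6126, 5782 and 5890 TPM in TKO-serum, with Dppa5a the most abundant and none at 0. Every TKO-2i sum lay below every TKO-serum sum. In the edgeR test given below, 1 of these markers rose, 4 fell and 2 did not pass, beside 62.5% of all tested genes called. Reads of the targeted genes were present in all 6 libraries, and a sum over the whole gene does not check the mutations. Dnmt1 had between 25.7 and 34.6 TPM, Dnmt3a had between 4.30 and 5.19 TPM in TKO-2i and between 21.3 and 23.02 TPM in TKO-serum, and Dnmt3b had between 6.71 and 9.53 TPM and between 18.8 and 20.9 TPM.

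All 10 members passed the filter on low counts. In TKO-2i compared with TKO-serum, Klf4, Klf6, Klf10, Klf11 and Klf13 rose and Klf7 fell at an adjusted p-value under 0.05 in edgeR's quasi-likelihood test on counts with Benjamini-Hochberg adjustment, while Klf2, Klf3, Klf5 and Klf9 did not pass. These 6 of 10 members stand beside 62.5% of the 18177 genes tested, of which 31.9% rose and 30.6% fell, so the share called among the members was near the background. The same 6 members were called without TKO-2i replicate 2, beside 67.2% of the genes tested then. With edgeR on counts from length-scaled TPM, Klf3 was called as lower in TKO-2i and Klf7 was not called. On TPM, tested with limma on log2(TPM + 0.1), the called members were instead Klf4, Klf10 and Klf11, which rose, and Klf2 and Klf3, which fell. That fit used TPM without TMM factors, called 55.3% of all tested genes and put the median of all tested genes at -0.08. With edgeR on counts, the median log2 fold change of the members was 0.15, and that of all tested genes was 0.01. Called genes had a median absolute log2 fold change of 0.73, which Klf4 exceeded and the other 5 called members did not. In these bulk samples, fewer cells with a transcript and less transcript per cell cannot be told apart.

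Klf4, the member best known as a reprogramming factor, showed the largest change. Its level was 97.6, 109.9 and 106 TPM for TKO-2i replicates 1, 2 and 3 and 62.2, 67.5 and 65.5 TPM for the TKO-serum replicates. Every TKO-2i library lay above every TKO-serum library. On counts, Klf4 (ENSMUSG00000003032; chromosome 4 of GRCm38, 55527143 to 55532466, minus strand) rose from 121.1 ± 0.527 CPM to 211.3 ± 10.2 CPM (SD, n = 3), a log2 fold change of 0.80 (standard error 0.05, edgeR adjusted p = 4.3e-06). That absolute change was larger than in 70.3% of the tested genes. It lay between 0.67 and 0.84 across the alternatives, TPM included.

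Klf2, whose role in naive mESCs overlaps that of Klf4, was the most abundant member in both media. Its level was 328, 333 and 324 TPM in TKO-2i and 368, 364 and 374 TPM in TKO-serum, so that on TPM the TKO-2i libraries were the lower ones and the groups did not overlap. On counts the groups overlapped, with 361.7, 303.7 and 347.3 CPM in TKO-2i and 360.8, 319.9 and 343.5 CPM in TKO-serum. The log2 fold change of Klf2 (ENSMUSG00000055148; chromosome 8, 72319033 to 72321656, plus strand) was -0.02 on counts (95% interval -0.17 to 0.13, edgeR adjusted p = 0.87). It was 0.06 without TKO-2i replicate 2, and -0.17 with limma on log2(TPM + 0.1) (limma adjusted p = 0.0079), where the median of all genes was itself at -0.08. Klf2 has a single annotated transcript of 1847 bases. The effective length that the quantifier gave it was 1320, 1240 and 1277 bases in TKO-2i and 1248, 1225 and 1230 bases in TKO-serum, overlapping groups, and its part in the lower TPM was not tested.

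Klf5, which acts with Klf2 and Klf4 in mESCs, did not separate the media on either scale. It had 52.1, 60.7 and 51.1 TPM in TKO-2i and 55.4, 62.8 and 60.2 TPM in TKO-serum. On counts, Klf5 (ENSMUSG00000005148; chromosome 14, 99298691 to 99315036, plus strand) had a 95% interval of its log2 fold change from -0.10 to 0.10 (edgeR adjusted p = 1). A ratio of 2 members within a library does not depend on how libraries are scaled against each other. The TPM of Klf4 relative to that of Klf2 was 0.298, 0.330 and 0.326 in TKO-2i and 0.169, 0.185 and 0.175 in TKO-serum, without overlap. The ratio of Klf5 to Klf2 was 0.159, 0.182 and 0.158 in TKO-2i and 0.150, 0.173 and 0.161 in TKO-serum, and these groups overlapped. Against Klf2 as the reference, Klf4 therefore moved and Klf5 stayed within the spread of the replicates.

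The remaining activating members, Klf6 and Klf7, were lower in abundance. Klf6, a widely expressed growth regulator, had 19.7, 20.9 and 18.8 TPM in TKO-2i and 17.1, 18.2 and 17.6 TPM in TKO-serum. All TKO-2i libraries lay above all TKO-serum libraries, by a small margin. On counts, Klf6 (ENSMUSG00000000078; chromosome 13, 5861482 to 5870394, plus strand) had a log2 fold change of 0.27 (standard error 0.05, edgeR adjusted p = 0.0018), and it passed on length-scaled TPM as well (0.26, edgeR adjusted p = 0.0019). With limma on log2(TPM + 0.1) the value was 0.17 and did not pass (limma adjusted p = 0.084). Klf7, known from neuronal development, had 9.55, 11.4 and 9.85 CPM in TKO-2i and 13.1, 13.25 and 13.3 CPM in TKO-serum. Each TKO-2i library was the lower on counts, yet on TPM the groups overlapped, at 3.03, 3.32 and 3.15 TPM and at 3.07, 3.75 and 3.16 TPM. Klf7 (ENSMUSG00000025959; chromosome 1, 64029447 to 64122282, minus strand) had a log2 fold change of -0.37 on counts (standard error 0.08, edgeR adjusted p = 0.0041) and of 0.02 on counts from length-scaled TPM (edgeR adjusted p = 0.82).

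**Figure D1:**
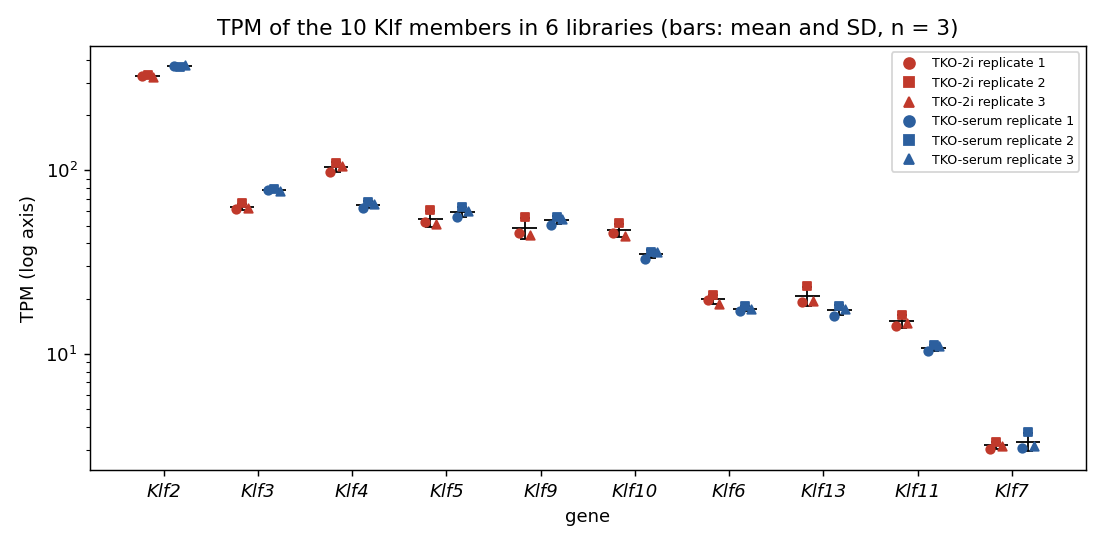
TPM of each member (log axis) in the 3 TKO-2i and 3 TKO-serum libraries, with the mean and SD of each group; members are ordered by their mean in TKO-serum. Klf4 and Klf10 lie higher in every TKO-2i library, and Klf2 and Klf3 lie lower on this scale, although neither was called on counts.

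Klf3 is the CtBP-binding repressor among the members. Its level was 61.7, 66.2 and 62.1 TPM in TKO-2i and 78.1, 78.8 and 76.9 TPM in TKO-serum, so all TKO-2i libraries were lower on TPM. On counts the groups overlapped, with 101.6, 112.4 and 104.3 CPM against 101.6, 107.6 and 102 CPM. Klf3 (ENSMUSG00000029178; chromosome 5, 64803388 to 64832901, plus strand) had a log2 fold change of 0.03 on counts (edgeR adjusted p = 0.66), of -0.21 on counts from length-scaled TPM (edgeR adjusted p = 0.012) and of -0.30 with limma on log2(TPM + 0.1) (limma adjusted p = 0.0017). A scale that corrects for transcript length thus moved Klf3 by more than it moved the median of all genes.

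The other CtBP-binding genes of the family, Klf8 and Klf12, were not among the 10 members and moved in opposite directions. Klf8 had 34.6, 40.1 and 33.3 TPM in TKO-2i and 17.3, 18.1 and 19.7 TPM in TKO-serum. Klf8 (ENSMUSG00000041649; chromosome X, 153237466 to 153396132, plus strand) rose in all TKO-2i libraries with a log2 fold change of 1.02 (standard error 0.08, edgeR adjusted p = 1e-05). Klf12 had 1.13, 0.891 and 2.01 TPM in TKO-2i and 4.72, 8.69 and 7.21 TPM in TKO-serum, with all TKO-2i libraries lower. Klf12 (ENSMUSG00000072294; chromosome 14, 99870632 to 100284679, minus strand) had a log2 fold change of -2.46 (standard error 0.13, edgeR adjusted p = 9.4e-07). The gap between Klf5 and Klf12, neighbours on chromosome 14, is 555.6 kb. The ratio of Klf8 to Klf3 in TPM was 0.561, 0.606 and 0.537 in TKO-2i and 0.221, 0.230 and 0.255 in TKO-serum. Summed over Klf3, Klf8 and Klf12, however, the TPM was 100.6 ± 5.63 in TKO-2i and 103.2 ± 2.78 in TKO-serum (SD, n = 3), and the groups overlapped. The same sum on CPM was 190.8 ± 15.0 in TKO-2i and 158.4 ± 5.33 in TKO-serum, a log2 ratio of 0.27 without overlap, so the overlap held on TPM and not on CPM.

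Of the SIN3-binding members, Klf10, Klf11 and Klf13 rose on counts and Klf9 did not pass. Klf10 and Klf11 are known as early response genes of TGF-beta signalling. Klf10 had 45.7, 51.5 and 44.0 TPM in TKO-2i and 32.9, 35.7 and 36.0 TPM in TKO-serum. Klf11 had 14.1, 16.3 and 14.7 TPM in TKO-2i and 10.3, 11.1 and 11.01 TPM in TKO-serum. Both were higher in every TKO-2i library. Klf10 (ENSMUSG00000037465; chromosome 15, 38291463 to 38300706, minus strand) had a log2 fold change of 0.56 (standard error 0.05, edgeR adjusted p = 1.6e-05), and Klf11 (ENSMUSG00000020653; chromosome 12, 24651274 to 24662789, plus strand) one of 0.58 (standard error 0.05, edgeR adjusted p = 1.5e-05). The difference between these 2 changes was smaller than their standard errors.

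Klf13, a regulator of T cell chemokine expression and heart development, had 19.2, 23.4 and 19.3 TPM in TKO-2i and 16.1, 18.3 and 17.5 TPM in TKO-serum. The TKO-2i libraries were the higher ones, with replicate 2 above the other 2 of its group. Klf13 (ENSMUSG00000052040; chromosome 7, 63886351 to 63938915, minus strand) had a log2 fold change of 0.37 on counts (standard error 0.05, edgeR adjusted p = 0.00032), and with limma on log2(TPM + 0.1) it had 0.25 (limma adjusted p = 0.069). Klf9, a gene induced by glucocorticoid and thyroid hormones, had 45.5, 55.6 and 44.2 TPM in TKO-2i and 50.6, 55.9 and 54.3 TPM in TKO-serum. Its groups overlapped, and the 95% interval of the log2 fold change of Klf9 (ENSMUSG00000033863; chromosome 19, 23141226 to 23168134, plus strand) ran from -0.16 to 0.07 on counts (edgeR adjusted p = 0.55).

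By mean TPM, Klf2 ranked 390th of the 18177 tested genes in TKO-2i and 337th in TKO-serum, Klf4 ranked 1389th and 2301st, and Klf7 ranked 10932nd and 11235th. In TKO-2i the order of the members was Klf2, Klf4, Klf3, Klf5, Klf9, Klf10, Klf13, Klf6, Klf11 and Klf7. The libraries of Klf5 and Klf9, of Klf9 and Klf10, and of Klf13 and Klf6 overlapped, so these neighbours were not ordered beyond their spread. In TKO-serum the order was Klf2, Klf3, Klf4, Klf5, Klf9, Klf10, Klf6, Klf13, Klf11 and Klf7, with overlap between Klf4 and Klf5, Klf5 and Klf9, and Klf6 and Klf13. Klf3 and Klf4 exchanged places, and their TPM libraries did not overlap in either medium. In TKO-serum this order rests on the short retained intron transcript Klf3-208, which held 33.6 of the 77.95 TPM of Klf3 in the mean, and the other Klf3 transcripts together lay below the 65.1 TPM of Klf4. Klf4 relative to Klf3 was 1.58, 1.66 and 1.70 in TKO-2i and 0.796, 0.857 and 0.851 in TKO-serum.

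The summed dosage of the family hardly differed on TPM while its composition did. The 10 members summed to 686.6, 740.7 and 686.6 TPM in TKO-2i and to 694, 716.4 and 716.4 TPM in TKO-serum, overlapping groups with a log2 ratio of the means of -0.01. The ratio was 0.07 on TPM rescaled by TMM factors, still with overlap, but above the spread of the summed TPM (0.048, SD of log2). The sum on CPM was 1153, 1121 and 1151 CPM in TKO-2i and 998.4, 973.6 and 989.9 CPM in TKO-serum, a log2 ratio of 0.21 without overlap. CPM weights long transcripts more and also carries the TMM factors, as the rescaled TPM does. The dosage statement thus held on TPM as deposited and not on CPM. Without Klf2, the 9 remaining members summed to 376.4 ± 27.2 TPM in TKO-2i and 340.1 ± 13.3 TPM in TKO-serum (SD, n = 3). The log2 ratio was 0.15 on TPM and 0.32 on CPM, and the groups did not overlap on either scale. With the 7 other Klf genes added, the sum was 789.9 ± 35.5 TPM and 778.8 ± 15.7 TPM, a log2 ratio of 0.02 with overlap, which was 0.23 on CPM without overlap.

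Within the sum, Klf2 held 47.8%, 45.0% and 47.2% of the TPM in TKO-2i and 53.1%, 50.8% and 52.2% in TKO-serum. Klf4 held 14.2%, 14.8% and 15.4% in TKO-2i and 8.96%, 9.43% and 9.14% in TKO-serum. The share of Klf2 was thus lower and that of Klf4 higher in every TKO-2i library. Shares of Klf3 were also lower in TKO-2i, at 8.98% ± 0.0523 against 11% ± 0.259 (SD, n = 3), and those of Klf6, Klf10, Klf11 and Klf13 were higher without overlap. Klf5, Klf7 and Klf9 overlapped in their shares. Summed by class, the 5 activating members had 510.2 ± 15.2 TPM in TKO-2i and 514.3 ± 7.62 TPM in TKO-serum, with overlap, while the 4 SIN3-binding members had 124.4, 146.8 and 122.2 TPM against 110, 121.1 and 118.9 TPM. The lowest TKO-2i sum of the SIN3-binding members exceeded the highest TKO-serum sum only narrowly on TPM, with a log2 ratio of 0.17, and the ratio was 0.29 on CPM. For the activating members the log2 ratio was -0.01 on TPM with overlap and 0.20 on CPM without overlap.

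**Figure D2:**
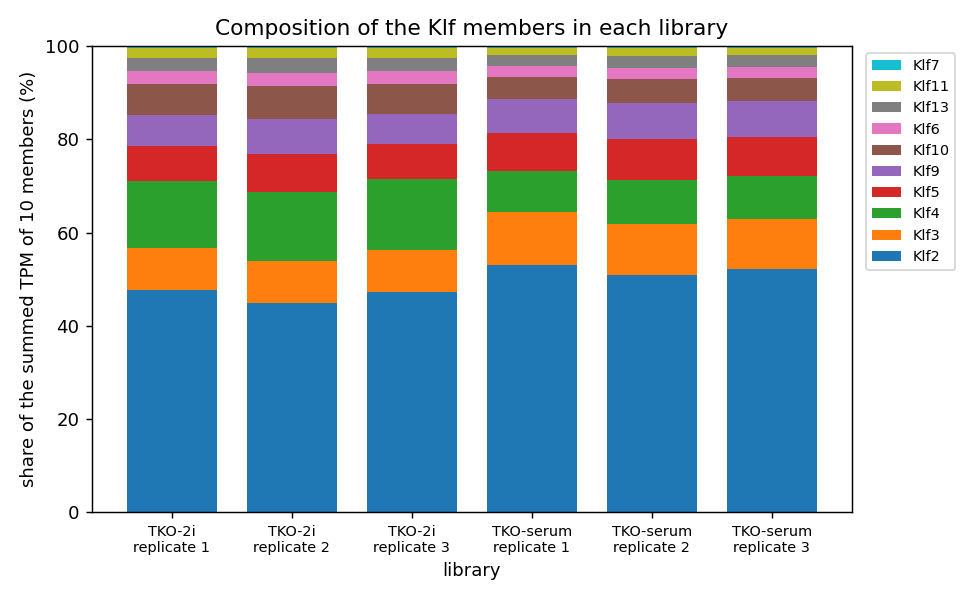
Share of each member in the summed TPM of the 10 members (percent, stacked) in each of the 6 libraries. The Klf2 layer is narrower in TKO-2i (45.0% to 47.8%) than in TKO-serum (50.8% to 53.1%) and the Klf4 layer is wider.

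The remaining 5 Klf genes outside the 10 members were low or little changed. Klf16, a SIN3-binding gene, had 33.6, 36.0 and 36.1 TPM in TKO-2i and 31.8, 32.5 and 31.8 TPM in TKO-serum, all TKO-2i libraries being higher. Its log2 fold change was 0.26 (edgeR adjusted p = 0.011), a call that was lost without TKO-2i replicate 3, without TKO-serum replicate 2 and on TPM (0.13, limma adjusted p = 0.082). Klf15, a regulator of metabolism, had 11.9, 12.3 and 11.3 TPM in TKO-2i and 11.6, 11.7 and 10.3 TPM in TKO-serum, overlapping groups. Its log2 fold change of 0.24 (edgeR adjusted p = 0.038) was lost in 10 of the 14 alternatives, and the 866 tested genes of its chromosome 6 had a median of 0.41. Klf17, a gene of early embryos, had 15, 12 and 8 counts in TKO-2i and 54, 59 and 48 counts in TKO-serum. Its log2 fold change was -2.14 (standard error 0.26, edgeR adjusted p = 0.00013) at under 1 TPM in all 6 libraries. At this level the size depended on the offset, with -1.66 from limma on log2(TPM + 0.1) and -0.54 from limma on log2(TPM + 1). The erythroid factor Klf1 had between 24 and 41 counts and did not pass (log2 fold change 0.21, edgeR adjusted p = 0.50). Klf14 had between 4 and 18 counts and was not tested. Of these 7 genes outside the members, 3 rose, 2 fell, 1 did not pass and 1 was not tested, beside 62.5% of all tested genes called, and the median log2 fold change was 0.23 over the 6 tested.

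**Figure D3:**
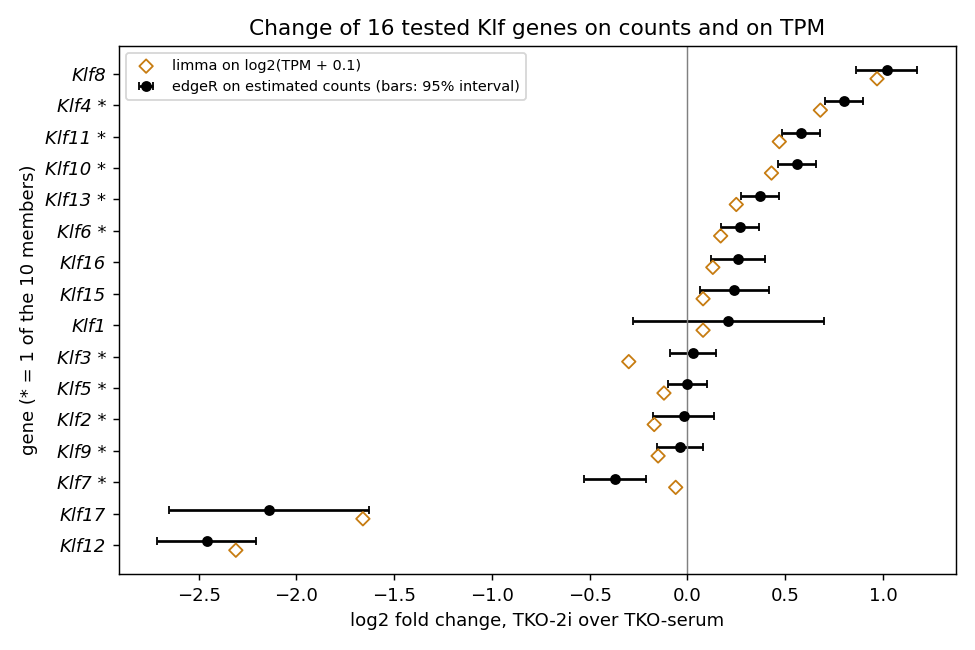
Log2 fold changes of the 16 tested Klf genes (TKO-2i over TKO-serum) from edgeR on estimated counts, with 95% intervals, and from limma on log2(TPM + 0.1). Klf8 and Klf4 rose and Klf12 and Klf17 fell on both scales, while Klf3 lies at 0.03 on counts and at -0.30 on TPM.

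The files held 36 annotated transcripts of the 10 members, of which 25 passed the filter. In a fit over all 48564 transcripts tested, 5 rose, 1 fell and 19 did not pass, beside 23.5% of all tested transcripts called in either direction. Klf4-201, Klf11-201, Klf10-201, Klf13-201 and Klf6-201 rose, with log2 fold changes of 0.76, 0.53, 0.49, 0.32 and 0.23 (edgeR adjusted p = 0.00067, 0.0016, 0.0065, 0.0058 and 0.039). Klf7-202 fell by 0.47 on the log2 scale (edgeR adjusted p = 0.020). The calls of Klf6-201 and Klf7-202 were the least stable, since that of Klf6-201 was lost with any 1 library left out and that of Klf7-202 with any 1 left out except TKO-2i replicate 2. With limma on log2(TPM + 0.1) the calls of Klf6-201, Klf7-202 and Klf13-201 were lost (limma adjusted p = 0.15, 0.12 and 0.13). Each of these transcripts is the leading one of its gene, meaning the one with the largest share of the gene's TPM. The leading transcript held at least 96.9% of the TPM in every library for Klf4, Klf5, Klf11 and Klf13, and Klf2 and Klf9 had 1 expressed transcript each.

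The leading transcript's share of TPM did not overlap between the media for Klf3, Klf7 and Klf13. These are 3 of the 8 members with several expressed transcripts, beside 23.7% of 13091 such genes. On shares of estimated counts, Klf3 and Klf13 still did not overlap and Klf7 did. The share over all genes is not given for that scale. For Klf3 the protein-coding Klf3-201 held 41.9%, 49.7% and 41.8% of the gene's TPM in TKO-2i and 29.9%, 37.1% and 33.8% in TKO-serum. The share was higher in every TKO-2i library, by 10.9 percentage points in the mean (exact two-sided permutation p = 0.10, the smallest that 3 against 3 samples can give). The counterpart was Klf3-208, annotated as a retained intron transcript, with 22.9, 17.4 and 22.4 TPM in TKO-2i and 35.9, 31.1 and 33.9 TPM in TKO-serum. Klf3-208 was lower in all TKO-2i libraries, with a log2 fold change of -0.59 that did not pass (edgeR adjusted p = 0.089). Its adjusted p lay between 0.009 and 0.043 with DESeq2 and with limma on log2(TPM + 0.1). Klf3-201 itself had 25.9, 32.9 and 26.0 TPM in TKO-2i and 23.4, 29.2 and 26.0 TPM in TKO-serum, overlapping groups with a log2 fold change of 0.15 (edgeR adjusted p = 0.26). The short coding transcript Klf3-206 had 6.29, 5.85 and 5.57 TPM in TKO-2i and 10.1, 7.35 and 7.93 TPM in TKO-serum (log2 fold change -0.49, edgeR adjusted p = 0.16). It passed with limma on log2(TPM + 0.1) (-0.50, limma adjusted p = 0.048).

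The division of reads among Klf3 transcripts rests on few bases. Klf3-208 has 1026 bases in 4 exons, of which 946 lie in exons of Klf3-201 and 80 do not (chromosome 5, 64823030 to 64823109). Klf3-206 has 809 bases, 74 of them outside the exons of Klf3-201. The quantifier assigned 671, 428 and 620 estimated counts to Klf3-208 in TKO-2i and 831, 898 and 873 in TKO-serum, against 2592 to 4209 for Klf3-201 across all libraries. Because Klf3-208 is short, a small part of the counts of Klf3 made up 33.2% ± 5.93 of its TPM in TKO-2i and 43.1% ± 3.37 in TKO-serum (SD, n = 3). The gene's lower TPM in TKO-2i lay mainly in Klf3-208 and Klf3-206, and not in Klf3-201.

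For Klf7 the leading Klf7-202 held 52.1%, 65.0% and 52.4% of the TPM in TKO-2i and 78.1%, 69.3% and 81.0% in TKO-serum. This TPM share was lower in every TKO-2i library (exact two-sided permutation p = 0.10, the smallest possible). On estimated counts, Klf7-202 held 379.7, 471.8 and 386.4 of the gene's 428, 500 and 420 counts in TKO-2i. In TKO-serum it held 476.1, 671 and 582.9 of 506, 705 and 613 counts, and the shares on counts overlapped. Klf7-202 had 1.57, 2.16 and 1.65 TPM in TKO-2i and 2.40, 2.60 and 2.56 TPM in TKO-serum. The 553-base Klf7-203, whose first exon lies upstream of that of Klf7-202, was estimated at 15.0, 11.8 and 20.4 counts in TKO-2i and at 0, 13.3 and 0 counts in TKO-serum. These few counts came to 0.855, 0.812 and 1.25 TPM in TKO-2i and 0, 0.778 and 0 TPM in TKO-serum. Klf7-203 has 81 bases outside the exons of Klf7-202 (chromosome 1, 64122202 to 64122282), and its log2 fold change of 1.97 did not pass (edgeR adjusted p = 0.32). Without TKO-serum replicate 2, the only TKO-serum library with counts, it was 6.94 against a group at 0 (edgeR adjusted p = 0.026). Klf7-201 had between 0.251 and 0.671 TPM in the 6 libraries, with overlap. For Klf13 the shares of Klf13-201 were all above 98% and differed by 0.815 percentage points in the mean. Klf6-202, a retained intron transcript, held 10.5% ± 1.99 of the TPM of Klf6 in TKO-2i and 11.9% ± 3.52 in TKO-serum (SD, n = 3), with overlap.

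**Figure D4:**
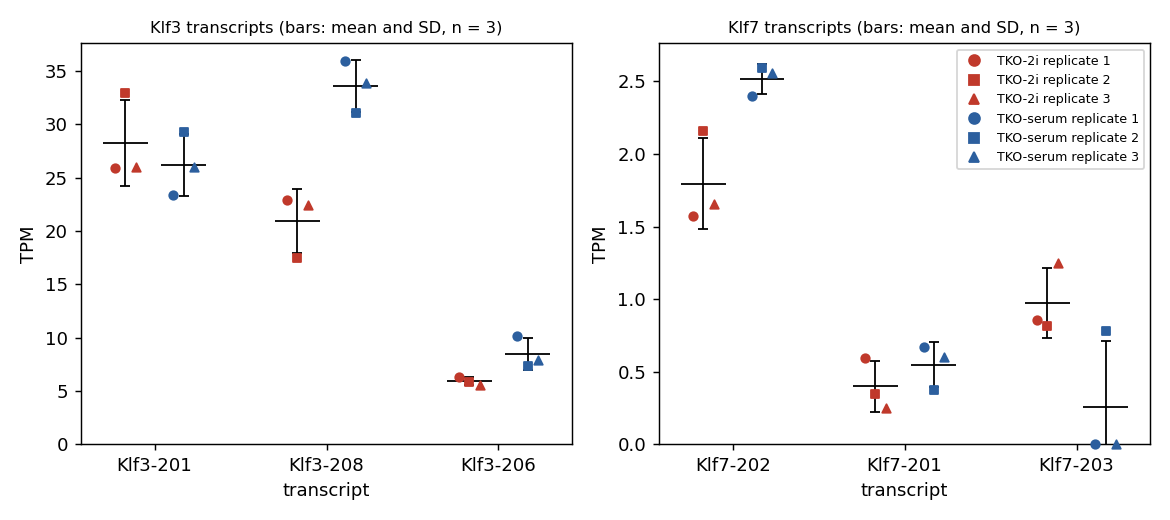
TPM of the Klf3 and Klf7 transcripts that held at least 10% of their gene's TPM, in each library, with the mean and SD of each group (n = 3). Klf3-208 and Klf7-202 lie lower in every TKO-2i library, and Klf7-203 is at 0 in 2 TKO-serum libraries.

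Among the proteins that KLF repressors recruit and the acetyltransferases that KLF activators recruit, 2 of 10 genes rose, 2 fell and 6 did not pass, beside 62.5% of all tested genes called. Ctbp2, the corepressor that binds Klf3, Klf8 and Klf12, had 86.2, 90.7 and 85.8 TPM in TKO-2i and 175.6, 184.2 and 181.7 TPM in TKO-serum. It fell in every TKO-2i library, with a log2 fold change of -0.96 (standard error 0.05, edgeR adjusted p = 1.4e-06). Sin3a fell less (-0.22, edgeR adjusted p = 0.0066; -0.34 with limma on TPM), and the acetyltransferase gene Kat2b rose (0.63, edgeR adjusted p = 0.00015). Sin3b, the most abundant of the 10 over both media together, had between 168.3 and 183.4 TPM in the 6 libraries. It did not pass (0.11, edgeR adjusted p = 0.29). Without TKO-2i replicate 2 it passed (0.20, edgeR adjusted p = 0.0093), and without TKO-2i replicate 1 it was at 0.04. The fourth called gene was Ctbp1 (0.21, edgeR adjusted p = 0.017), named because it is the paralog of Ctbp2, after its value was seen. Its TPM groups overlapped, at 58.24, 54.96 and 52.58 TPM in TKO-2i and 49.76, 53.07 and 56.69 TPM in TKO-serum.

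Of the 9 Sp genes, 4 rose and 5 did not pass, beside 62.5% of all tested genes called, and the median log2 fold change was 0.21. Sp5, a known target of Wnt signalling, had 23.4, 19.7 and 29.6 TPM in TKO-2i and 1.77, 1.88 and 2.39 TPM in TKO-serum, and its log2 fold change of 3.77 (standard error 0.22, edgeR adjusted p = 2.1e-06) was larger than that of any tested Klf gene. Sp2 and Sp6 rose by 0.62 and 0.44 (Sp6 by 0.28 with limma on log2(TPM + 1)), and both lie on chromosome 11, whose tested genes had a median of 0.26. Sp1, the most abundant over both media together, did not pass (-0.11, edgeR adjusted p = 0.37). Among the alternatives it passed without TKO-2i replicate 2 (-0.22, edgeR adjusted p = 0.014) and on length-scaled TPM (-0.21, edgeR adjusted p = 0.043). Without TKO-2i replicate 1, and also without TKO-serum replicate 2, it was at -0.05 and did not pass. Summed TPM of the Sp genes was 162.7, 194.8 and 169.1 in TKO-2i and 140.5, 157.8 and 146.6 in TKO-serum, without overlap.

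Genes that act with the KLF factors in the naive network moved in both directions. Of 12 partners, 6 rose, 5 fell and 1 did not pass, beside 62.5% of all tested genes called, and the median log2 fold change was 0.08. By the rule of the largest changes, the genes named were Tfcp2l1 (1.96), Tbx3 (1.52) and Prdm14 (1.28), all regulators of naive pluripotency, which were higher in every TKO-2i library, and the 5 that fell had smaller changes. Pou5f1, the most abundant partner, had 1057, 982.1 and 1012 TPM in TKO-2i and 1249, 1249 and 1253 TPM in TKO-serum, the TKO-2i libraries being lower on TPM. On counts its groups overlapped and it did not pass (-0.18, edgeR adjusted p = 0.093). It passed with limma on log2(TPM + 0.1) (-0.30, limma adjusted p = 0.00078). With edgeR it passed with at least 10 counts in every sample (-0.22, edgeR adjusted p = 0.049), on length-scaled TPM (-0.20, edgeR adjusted p = 0.040) and without TKO-2i replicate 1 (-0.26, edgeR adjusted p = 0.027), and was at -0.08 without TKO-2i replicate 2 (edgeR adjusted p = 0.15). The LIF pathway, which feeds Klf4, was called in 8 of 8 genes, beside 62.5% of all tested genes, with 4 up, 4 down and a median log2 fold change of 0.04. Its response gene Junb (-1.52) fell, and the signalling genes Il6st (0.55) and Jak1 (0.43) rose, each without overlap. Pim1, the most abundant over both media together, had a log2 fold change of -0.16 (-0.28 with limma on TPM) that lost its call without TKO-2i replicate 3, TKO-serum replicate 1 or TKO-serum replicate 3.

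Genes of ERK and Wnt signalling, the pathways downstream of the inhibited kinases MEK and GSK3, were listed beside the KLF genes. Of 10 ERK response genes, 9 fell and 1 rose, beside 30.6% of all tested genes that fell and 31.9% that rose, and the median log2 fold change was -1.66. The phosphatase genes Dusp4 (-3.23) and Dusp6 (-2.92) and the immediate early gene Egr1 (-2.48) fell in every TKO-2i library, and Etv5, the most abundant, fell by 0.45 on the log2 scale. The gene that rose was Etv4 (0.49), an ETS factor named after its value was seen. Of 9 Wnt target genes, 5 rose, 1 fell, 2 did not pass and 1 was not tested, beside 62.5% of all tested genes called. Cdx1 (7.85), Axin2 (3.37) and Rnf43 (2.67) had the largest rises, and Tcf7, the most abundant over both media together, rose by 0.77. Axin2, Rnf43, Tcf7 and Etv4 also lie on chromosome 11. With limma on log2(TPM + 1), which weighs low levels less, Cdx1 was at 5.04 and Rnf43 at 0.88. Whether the changes of these pathways and those of the KLF genes are linked was not tested.

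Markers of other cell types were low and several moved with the medium, as did 62.5% of all tested genes. The 8 trophoblast markers summed to 13.04, 12.9 and 13.7 TPM in TKO-2i and 16.8, 16.6 and 15.3 TPM in TKO-serum, with 2 up, 5 down and 1 not passed. Ascl2 was the most abundant in TKO-serum (8.56 TPM in the mean, and 0.706 TPM in TKO-2i) and fell, while Tfap2a was the most abundant in TKO-2i (6.85 TPM, and 1.80 TPM in TKO-serum) and rose with Cdx2 (4.28). None of the trophoblast markers was at 0 in any library. The 7 primitive endoderm markers summed to 4.75, 5.80 and 4.69 TPM and to 14.6, 17.7 and 19.2 TPM, with 6 down and 1 not passed. Dab2 was the most abundant of these in TKO-serum (6.72 TPM in the mean) and Gata4 in TKO-2i (2.41 TPM), and Foxa2 was at 0 in TKO-2i replicate 1. The 7 fibroblast markers, for feeder cells, summed to between 5.94 and 7.03 TPM in all 6 libraries, with Thy1 the most abundant, while Col3a1, Dcn and Lum lay under 0.26 TPM, each at 0 in 2 libraries. Of the fibroblast markers, 1 rose, 2 fell, 1 did not pass and 3 were not tested. The sums of all 3 lists were small beside those of the mESC markers. The part of such cells in the changes of the KLF genes was not tested.

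The 10 members lie on 10 different chromosomes, whose tested genes had median log2 fold changes between -0.15 and 0.04. No member lies on chromosome 6 or 11, whose genes had medians of 0.41 and 0.26. Annotated genes overlap Klf3, Klf7, Klf9 and Klf13, and of these Gm20033 on the opposite strand of Klf3 (1.014 TPM in the mean) and the miRNA gene Mir1192 within Klf9 (3.57 TPM) were the highest, named after their values were seen. Reads of overlapping genes may have been divided with error. The quantifier's strand setting, which bears on opposite-strand genes such as Gm20033, is not given in the sources used here. Mir1192 lies on the same strand as Klf9, where strand cannot separate the reads.

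Promoters of 8 members were at hand as RefSeq windows of GRCm38.p6, from 250 bases before to 50 bases after the transcription start, for Klf2, Klf3, Klf4, Klf6, Klf7, Klf9, Klf11 and Klf13. Their GC content lay between 58.3% (Klf7) and 77.7% (Klf11). GGGCGG, the GC box, was found on either strand in 7 of the 8, all but Klf9, and in 35.7% of all 32851 windows. CACCC was found in 5 of the 8 (Klf2, Klf3, Klf7, Klf9 and Klf13) and in 57.5% of all windows. The CACCC of Klf2 is not in the part printed below, which holds 2 of the 4 GGGCGG of Klf11. TTCNNNGAA, the letters bound by STAT factors, was found in Klf9 alone among the 8 and in 8.3% of all windows, and CTTTGA, the letters bound by TCF factors, in Klf6 alone and in 16% of all windows. Matches of CACCC and GGGCGG can overlap each other, and a match is a description of the letters and not a bound site. The 4 members with a window that rose on counts all held GGGCGG, as did Klf2 and Klf3, which did not pass, and Klf7, which fell. Printed next, to set the rising members beside Klf2 and Klf9, is the part of each window that lies before the start and outside the gene's annotated exons, 5′ to 3′ on the gene's strand, with CACCC and GGGCGG of either strand in capitals.
Klf4, chr4:55532476-55532725, minus strand: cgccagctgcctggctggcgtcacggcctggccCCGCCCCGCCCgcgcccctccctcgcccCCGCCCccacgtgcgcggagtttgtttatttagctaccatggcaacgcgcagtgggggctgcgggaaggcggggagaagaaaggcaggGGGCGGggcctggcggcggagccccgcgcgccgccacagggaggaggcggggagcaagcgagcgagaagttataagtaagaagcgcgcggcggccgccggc
Klf11, chr12:24651121-24651273, plus strand: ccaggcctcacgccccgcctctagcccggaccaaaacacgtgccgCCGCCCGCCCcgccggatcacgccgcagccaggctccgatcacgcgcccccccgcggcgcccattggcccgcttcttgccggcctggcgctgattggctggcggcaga
Klf13, chr7:63938916-63939165, minus strand: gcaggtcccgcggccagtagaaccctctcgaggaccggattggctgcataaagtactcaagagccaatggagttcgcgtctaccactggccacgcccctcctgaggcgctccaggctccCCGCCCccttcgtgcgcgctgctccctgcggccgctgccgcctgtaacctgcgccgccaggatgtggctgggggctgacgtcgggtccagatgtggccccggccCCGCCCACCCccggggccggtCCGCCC
Klf6, chr13:5861239-5861481, plus strand: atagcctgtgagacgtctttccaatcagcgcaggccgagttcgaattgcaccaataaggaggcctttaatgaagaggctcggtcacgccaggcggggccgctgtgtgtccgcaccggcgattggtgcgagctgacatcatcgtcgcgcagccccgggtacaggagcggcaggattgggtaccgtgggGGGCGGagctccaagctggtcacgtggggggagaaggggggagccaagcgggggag
Klf2, chr8:72318812-72319032, plus strand: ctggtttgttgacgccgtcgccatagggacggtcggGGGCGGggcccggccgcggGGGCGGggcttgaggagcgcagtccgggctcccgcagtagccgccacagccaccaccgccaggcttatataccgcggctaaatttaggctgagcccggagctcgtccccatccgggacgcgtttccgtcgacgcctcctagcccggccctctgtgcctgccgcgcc
Klf9, chr19:23140976-23141225, plus strand: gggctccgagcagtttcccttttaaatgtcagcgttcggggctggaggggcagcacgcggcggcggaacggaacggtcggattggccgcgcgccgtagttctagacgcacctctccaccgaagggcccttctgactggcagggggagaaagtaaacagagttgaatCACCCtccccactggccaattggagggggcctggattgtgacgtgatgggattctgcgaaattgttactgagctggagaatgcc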

How the data were processed

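For each of the 6 libraries the authors deposited estimated counts of reads and TPM values per transcript, with lengths and effective lengths, in the columns that salmon writes. The quantifier, its version and its strand setting are not given in the sources used here, and the submitters' processing notes name the build mm10. The authors' estimated counts carry no normalization and may be fractions, since reads shared by transcripts are divided between them, and the deposited TPM values are scaled for length and to a fixed sum. Of 136288 transcripts, 136100 had an identifier in GENCODE M21 (GRCm38), and at most 0.0643% of the counts of a library were unmatched and left out. Estimated counts and TPM were summed per gene, and counts were rounded. After filterByExpr and TMM normalization, with factors between 0.9705 and 1.0267, genes and, separately, transcripts were tested with the quasi-likelihood test of edgeR 4.0.16 (R 4.3.3) and Benjamini-Hochberg adjustment over all tested. The condition was the only factor. Standard errors come from the log2 fold change and the F statistic, and 95% intervals from normal quantiles. The fit was tested on simulated data. Shares and sums use TPM, and the error of dividing reads between transcripts is in no test.

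Alternatives were DESeq2 1.42.0, its size factors in edgeR, no filter, a floor of 10 counts per sample, edgeR on length-scaled TPM, limma 3.58.1 on TPM after log2 with 1 or 0.1 added, the replicate number as a block, and each sample left out. The members and the lists of genes were chosen with earlier results of these data known, and the classes of members by corepressor after their values were seen. All Klf genes are named, and from each other list the 3 largest changes with an adjusted p-value under 0.05 and a mean CPM of at least 1 and the most abundant gene. Transcripts are named at 10% or more of their gene's TPM. The sequencing pool of each library is not given in the sources used here, so pools were not compared. Protein sequences were not used here. Python 3.11.15 with numpy 2.4.6, pandas 2.3.3 and scipy 1.17.1 was used for sums, shares and permutation tests.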

Additional observations from a re-analysis of the deposited data

How the results depend on the processing

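Across the alternatives, between 9804 and 12568 genes were called, from 35.3% (no filter) to 69% (replicate block) of those tested. The members called numbered 6 in every alternative except limma on TPM, which called 5, beside 55.3% of all tested genes. On length-scaled TPM the 6 held Klf3 in place of Klf7, and otherwise they were the same 6. Without 1 sample at a time, between 10152 and 12568 genes (54.6% to 67.2% of those tested) and 6 members were called. Values that changed sign belonged mostly to members near 0. Klf5 had -0.02 with DESeq2 and with its size factors, -0.01 with no filter, -0.04 with at least 10 counts in every sample, -0.03 on length-scaled TPM, -0.12 with limma on either TPM scale, and -0.02 to 0.02 with 1 sample left out. Klf3 had -0.01 with at least 10 counts, -0.21 on length-scaled TPM, -0.30 with limma on either scale, and -0.01 to 0.06 with 1 sample left out. Klf2 ranged from -0.08 to 0.06 with 1 sample left out, and its transcript Klf2-201 reached 0.01. Klf7 had 0.02 on length-scaled TPM, Sin3b had -0.05 with limma on either scale, and transcript Klf6-202 ranged from -0.20 to 0.19, with -0.14 without TKO-2i replicate 1. The cause was not tested. The log2 ratio of the summed members was 0.21 on CPM, 0.07 on TPM rescaled by TMM, and -0.05 to 0.01 with 1 sample left out. Leading shares that did not overlap were those of Klf3 and Klf13 on estimated counts, where Klf7 dropped out. With 1 sample left out they numbered 3 to 5, where fewer samples make overlap less likely. The share over all genes is not given for either setting. Among named genes and transcripts, 615 alternative values kept direction and side of the threshold and 23 changed sign. Of the others, 37 lost and 18 gained a call. The replicate block called 12539 genes and 6 members, and with it Pou5f1 (-0.19, edgeR adjusted p = 0.007), Sp1 (-0.11, edgeR adjusted p = 0.048) and Klf3-208 (-0.62, edgeR adjusted p = 0.038) passed as well. Deviations of same-numbered samples correlated at 0.480, 0.618 and 0.084 across genes, and replicate 3 of TKO-2i correlated best with replicate 1 of TKO-serum (0.305), so the numbers were not taken as pairs. Depth limits Klf1, Klf14, Klf17 and Klf7-203, which rest on few counts.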
